A study of Mus musculus with 41 samples.

Results

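Broad H3K4me3 domains of post-ischemia macrophages (PIM) were the regions described here. Trimethylation of lysine 4 of histone H3 (H3K4me3) usually forms a narrow peak at the transcription start site (TSS) of a gene that is active or poised. At a minority of genes it spreads over many kilobases into the gene body, and such broad domains are known to mark genes that define a cell's identity in many tissues. In developing and stem cells, broad H3K4me3 also occurs at regulators that Polycomb keeps repressed with trimethylated lysine 27 (H3K27me3). Lactylation of lysine 18 (H3K18la) and acetylation of lysine 27 (H3K27ac) are marks of active promoters and enhancers.

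The domains were chosen by width alone, as the 500 widest of the 24861 H3K4me3 peaks that the PIM list holds on chromosomes 1 to 19. Peak width and the H3K4me3 signal of PIM therefore describe the choice and support nothing. The PIM were CD45+CD11b+F4/80+CD64+ cells sorted from calf muscle of female C57BL/6 mice (C57Bl6/J in the study's methods) aged 8 to 12 weeks, 2 days after hind-limb ischemia. Marks were profiled by CUT&Tag, in which an antibody guides the transposase Tn5 to cut around a histone mark, on nuclei of 2 samples each for H3K4me3, H3K18la and H3K27me3 and of 1 sample for H3K27ac. H3K4me3 widths were compared with E14 embryonic stem cells grown in serum-lif (ESC-ser) or in 2i-lif (ESC-2i), which were used as whole cells, and with nuclei of gastrocnemius muscle (GAS) of C57BL/6 mice of the same ages, each with 2 samples. Bone marrow-derived macrophages (BMDM) of C57BL/6 mice, cultured in DMEM, gave 1 sample per mark and no H3K4me3 list was used for them. All these samples are labelled as controls, and no group carries a genetic change in the labels. GAS is whole muscle with all the cell types it holds. The labelled cell type was checked against marker genes. Of 20 macrophage identity genes, 20 had H3K4me3 within 2000 bp of a TSS, as against 0 of 8 lymphocyte genes, 0 of 8 skeletal muscle genes and 0 of 5 stem cell genes. Of all protein-coding genes 57.1% did, and so did 8 of 8 housekeeping genes. Less clear were neutrophil genes, with 4 of 7, endothelial genes, with 3 of 5, and fibroblast genes, with 2 of 5. H3K18la lay in the same window at 5 of 7 neutrophil, 2 of 5 endothelial and 0 of 5 fibroblast genes. It did so at 20 of 20 macrophage identity genes, 1 of 8 lymphocyte genes and 34.4% of all protein-coding genes. In a sorted population, a mark carried by few cells and a weak mark in all cells cannot be told apart.

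The replicates of each list had been combined before peaks were called. No value below has a replicate error, no test between groups was possible, and the intervals given are 95% Wilson intervals that cover counting error only. The lists give no sequencing depth, the read totals in the study's quality table were not used here, and signals are compared within a list only.

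The domains ran from 7330 to 38414 bp, with a median of 8750 bp, as against a median of 2103 bp for the other 24361 peaks. The 3 narrowest domains measured 7335 bp at Ier2, 7335 bp at Fer and 7330 bp. The 3 widest peaks left out measured 7322 bp at Tpm3, 7314 bp at Tifa and 7303 bp at Setd1b, and no gap in width lay at the limit. Together the domains covered 4.93 Mb, which was 7.75% of the bases and 11.0% of the total signal of the list. Mean H3K4me3 signal per base had a median of 76.2 in the domains and 39.2 in the other peaks.

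Sequences upstream of genes in the domains are given first, since their CpG content differed with the cell types that share the domain. Each is the 250 bases before the RefSeq start (GRCm38.p6), with CG dinucleotides in capitals, and that start lies inside the domain. The first set comes from domains with no H3K4me3 peak at the same place in ESC-ser, ESC-2i and GAS. Cass4, a scaffold protein of the Cas family, lies at chr2:172393394-172393643 on the plus strand. Myo1f, an unconventional myosin of immune cells, lies at chr17:33555457-33555706 on the plus strand. Gpr35, a G protein-coupled receptor, lies at chr1:92972869-92973118 on the plus strand.
Cass4: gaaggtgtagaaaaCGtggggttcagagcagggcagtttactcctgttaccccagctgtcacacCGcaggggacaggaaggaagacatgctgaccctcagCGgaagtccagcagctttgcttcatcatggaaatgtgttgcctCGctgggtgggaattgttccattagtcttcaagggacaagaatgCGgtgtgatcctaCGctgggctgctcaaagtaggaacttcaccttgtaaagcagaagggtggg
Myo1f: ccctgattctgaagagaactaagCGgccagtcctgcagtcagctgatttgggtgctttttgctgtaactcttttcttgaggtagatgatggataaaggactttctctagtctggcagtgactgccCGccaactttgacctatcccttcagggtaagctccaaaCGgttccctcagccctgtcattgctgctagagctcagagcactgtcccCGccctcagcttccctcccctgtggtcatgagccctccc
Gpr35: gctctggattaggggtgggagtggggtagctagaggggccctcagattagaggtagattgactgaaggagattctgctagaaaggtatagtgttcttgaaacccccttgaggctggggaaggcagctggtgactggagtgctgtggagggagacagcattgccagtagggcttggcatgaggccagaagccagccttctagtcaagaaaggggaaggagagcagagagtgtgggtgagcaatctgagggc
They held 6, 4 and 0 CG dinucleotides.

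The second set comes from domains that were among the 500 widest in all 4 cell types. Tnrc18 lies at chr5:142817663-142817912 on the minus strand, and Irf2bpl at chr12:86884815-86885064 on the minus strand.
Tnrc18: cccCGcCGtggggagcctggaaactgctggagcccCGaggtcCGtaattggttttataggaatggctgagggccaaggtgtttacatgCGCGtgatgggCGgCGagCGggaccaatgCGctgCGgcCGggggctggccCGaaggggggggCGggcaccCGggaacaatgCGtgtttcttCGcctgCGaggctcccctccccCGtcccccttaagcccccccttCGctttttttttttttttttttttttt
Irf2bpl: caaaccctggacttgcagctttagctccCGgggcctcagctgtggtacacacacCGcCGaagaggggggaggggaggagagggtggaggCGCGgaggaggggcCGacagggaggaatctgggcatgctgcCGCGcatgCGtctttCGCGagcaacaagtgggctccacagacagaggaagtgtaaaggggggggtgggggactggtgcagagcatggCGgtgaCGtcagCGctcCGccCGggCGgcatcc
They held 20 and 17 CG dinucleotides. The third set comes from the 15 widest domains. Syne3, which encodes nesprin-3 of the outer nuclear membrane, lies at chr12:104998678-104998927 on the minus strand, and Pax6, a homeobox regulator of eye and brain development, at chr2:105668646-105668895 on the plus strand.
Syne3: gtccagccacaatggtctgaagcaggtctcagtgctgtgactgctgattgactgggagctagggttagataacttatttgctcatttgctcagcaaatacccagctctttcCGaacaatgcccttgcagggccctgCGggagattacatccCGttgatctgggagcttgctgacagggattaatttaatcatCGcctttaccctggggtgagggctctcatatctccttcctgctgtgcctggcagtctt
Pax6: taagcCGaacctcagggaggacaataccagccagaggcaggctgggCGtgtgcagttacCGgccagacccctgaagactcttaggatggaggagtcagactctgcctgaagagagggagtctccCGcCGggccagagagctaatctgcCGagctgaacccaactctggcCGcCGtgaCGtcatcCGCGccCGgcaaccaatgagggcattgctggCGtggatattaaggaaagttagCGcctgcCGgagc
They held 4 and 15 CG dinucleotides. The RefSeq start used for Syne3 is a later start of the gene, downstream of its first annotated TSS.

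The same contrast appeared over all genes that could be matched. Of the protein-coding genes with an entry in the RefSeq promoter table, 22 started in a domain with no H3K4me3 in the other 3 cell types, and the median of their upstream sequences was 3 CG dinucleotides (quartiles 2 and 4). For the 228 genes that started in a domain with H3K4me3 in all of the other 3, the median was 17 (quartiles 11 and 23). It was 16 for 7880 genes in the other PIM H3K4me3 peaks and 11 for all 15680 genes in the table. GAGGAA, the core letters of the motif of PU.1, the Spi1 product that guides myeloid development, were searched on both strands. They occurred in 10 of the 22 sequences (45.5%, interval 26.9 to 65.3), in 53 of the 228 (23.2%) and in 22.3% of all sequences in the table. Of the 7 sequences printed, Irf2bpl held these letters, at 140 and 77 bases before the start, and the others did not. TGANTCA of AP-1, GGGANTTCC of NF-kB and TTGCNNAA of C/EBP were absent from the 7, and occurred in 6.12%, 1.62% and 9.02% of all sequences. Over whole domains, the observed-to-expected CpG ratio had a median of 0.195 in the 68 domains without H3K4me3 elsewhere and 0.504 in the 15 shared as widest by all 4 cell types.

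Most domains lay over genes. A TSS of any annotated gene lay in 434 of the 500 (86.8%, interval 83.6 to 89.5), as against 50.1% of all PIM H3K4me3 peaks, although a wider region holds more of any feature. A protein-coding TSS lay in 392 domains, of which 338 held 1 such gene, 44 held 2 and 10 held 3 or more. These amounted to 457 protein-coding genes, or 2.21% of the 20722 on chromosomes 1 to 19 and 4.10% of the 11146 with a TSS in any PIM H3K4me3 peak. For 395 of the 457 the first annotated TSS was inside the domain, and for 62 a later TSS was. The domains extended into genes. In 325 domains with 1 coding gene and little copied sequence, the median distance from the first TSS inside the domain was 2004 bp to the upstream edge and 6688 bp to the downstream edge, and 289 reached farther downstream (88.9%, interval 85 to 91.9). In other peaks 75% did. Part of this came from counting from the first TSS. Counted from the last TSS inside the peak, 68.0% of domains (interval 62.7 to 72.8) and 64.0% of other peaks (interval 63.0 to 65.0) reached farther downstream, and these intervals overlap.

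The 15 widest domains differed in the marks over them. Syne3, Plec and 2010111I01Rik were covered by active marks, Pax6 and the region at Cttn by H3K27me3, and others lay in copied sequence. The Syne3 domain (chr12:104990282-105011149) was 20868 bp wide, with H3K18la on 97.3% of its bases, H3K27ac on 78.5% and no H3K27me3. The Plec domain (chr15:76188187-76208702) was 20516 bp wide, with 96.7% and 75.8% under these marks and no H3K27me3. Plec encodes plectin, a cytoskeletal linker. The domain at 2010111I01Rik was 20467 bp wide, with 97.8% under H3K18la and 56.0% under H3K27ac. The Pax6 domain (chr2:105666249-105686730) was of similar width, 20482 bp, and had no H3K18la, no H3K27ac and H3K27me3 on 100% of its bases.

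Copied sequence was frequent among the widest. A domain was called multi-copy where at least 50% of its 31-base words occurred again exactly elsewhere in the genome. This held for 7 of the 15 widest, for 54 of the 500 (10.8%) and for 4.04% of the other peaks. The widest of all, at the proximal end of chromosome 9 (chr9:3000001-3038414), held 9 predicted genes, had 92.8% copied words and a mean signal of 2115 per base, the highest of the 500. A pair at C130026I21Rik (72.9% and 67.9% copied), and single domains at Gm13241 with Gm13245 (67.5%), at Gm13146 (93.5%) and at 2 places without a TSS (92.3% and 87.4%) completed the 7. Another 3 of the 15 widest lay side by side at Sfi1, which encodes a centrin-binding protein, on chromosome 11. Their copied shares were 34.5%, 14.4% and 10.2%, and H3K18la, H3K27ac and H3K27me3 each lay over at least 69.2% of the bases of all 3. Multi-copy domains had H3K4me3 in GAS in 43 of 54 cases (79.6%, interval 67.1 to 88.2), and 25 of the 54 touched one of the 500 widest peaks there. The shares were 60.9% and 2.08% over all PIM H3K4me3 peaks, and 84.6% and 23.4% over all 500 domains. In 33 of the 54 H3K18la overlapped (61.1%, interval 47.8 to 73.0), and in 18 H3K27ac did (33.3%, interval 22.2 to 46.6), as against 63.7% and 65.5% of all PIM H3K4me3 peaks. How reads that align to several places were treated is not stated, and their part in these widths was not tested. The counts below include the 54 domains unless they are said to be left out.

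H3K18la lay over most domains. It overlapped 432 of the 500 (86.4%, interval 83.1 to 89.1), as against 63.7% of all PIM H3K4me3 peaks. Because a wide region is touched more easily, bases were compared as well. The median domain had 71.4% of its bases under H3K18la, and 341 domains (68.2%, interval 64.0 to 72.1) had at least 50%, as against 51.3% of the other peaks (interval 50.7 to 52.0). Without multi-copy sequence the values were 72.0% of 446 domains (interval 67.6 to 75.9) and 52.0% of the other peaks. H3K27ac overlapped 399 domains (79.8%, interval 76.1 to 83.1), as against 65.5% of all peaks. Of the peaks just below the limit it overlapped more, 84.2% at ranks 501 to 1000 (interval 80.7 to 87.1) and 85.8% at ranks 1001 to 2500. Without multi-copy sequence it overlapped 85.4% of the domains and 86.5% of ranks 501 to 1000. Its list came from 1 sample, so a difference from H3K18la and the number of samples cannot be told apart. The median was 39.0% of bases, and 169 domains (33.8%, interval 29.8 to 38.1) had at least 50%, as against 28.2% of the other peaks (interval 27.6 to 28.7). With the 5000 strongest H3K27ac peaks alone the median was 18.6%, and with the 5000 strongest H3K18la peaks that of H3K18la was 47.7%. Without multi-copy sequence, H3K27ac covered at least 50% in 36.3% of the domains and 28.7% of the other peaks. Both marks were present in 394 domains (78.8%), H3K18la without H3K27ac in 38 (7.6%), H3K27ac without H3K18la in 5 (1%) and neither in 63 (12.6%). Over all PIM H3K4me3 peaks these shares were 51%, 12.7%, 14.5% and 21.8%.

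The shape of the marks differed. In domains that were not multi-copy, the widest overlapping H3K18la peak had a median width of 5254 bp, as against 4088 bp at ranks 501 to 1000 and 2026 bp at all the other H3K4me3 peaks. Several H3K18la peaks touched 208 of 399 domains, and 1082 of 14993 other peaks. The widest H3K27ac peak had a median of 2133 bp, as against 1908 bp at ranks 501 to 1000 and 1111 bp at the other peaks, and several touched 312 of 381 domains and 1935 of 15562 other peaks. A wider region holds more peaks of any list. The mean signal of these peaks ranked at a median percentile of 82.8 in the H3K18la list and 66.7 in the H3K27ac list. For the other H3K4me3 peaks the percentiles were 67 and 56.7. Broad H3K4me3 was partly broad H3K18la too. Of the 500 widest H3K18la peaks of PIM, 124 (24.8%) touched a domain, and 122 domains (24.4%) touched one of them, as against 3.08% of all PIM H3K4me3 peaks. For the 500 widest H3K27ac peaks these values were 133 (26.6%), 121 (24.2%) and 2.11%.

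**Figure D1:**
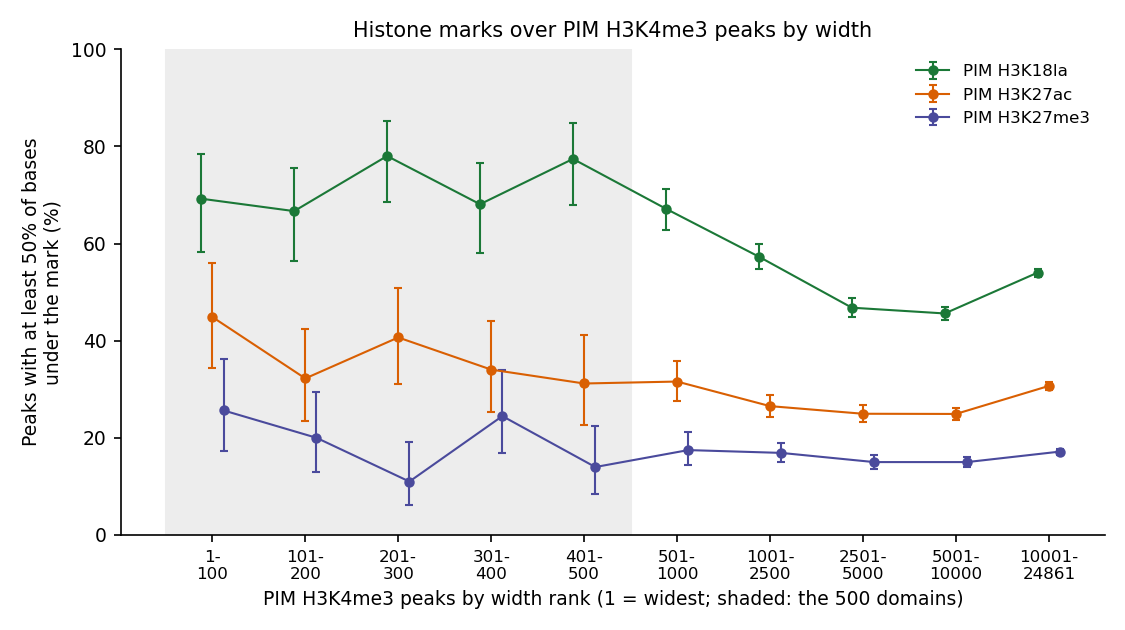
Share of PIM H3K4me3 peaks, grouped by width rank along the horizontal axis, in which at least 50% of bases lie under PIM H3K18la, H3K27ac or H3K27me3 (vertical axis, percent). Bars are 95% Wilson intervals, multi-copy peaks are left out, and the shaded ranks are the 500 domains. For H3K18la the share was between 66.7% and 78.0% within the domains and 45.6% for ranks 5001 to 10000.

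Within the 500, the marks did not order the domains by width. At least 50% of bases lay under H3K18la in 69.2% of ranks 1 to 100 (interval 58.3 to 78.4) and in 77.4% of ranks 401 to 500 (interval 67.9 to 84.7), multi-copy domains left out, and the intervals overlap. Ranks 501 to 1000, just below the limit, had 67.2% (interval 62.8 to 71.2). The share then was 57.3% for ranks 1001 to 2500, 46.8% for ranks 2501 to 5000 and 45.6% for ranks 5001 to 10000, and 54.0% for the narrowest peaks. For H3K27ac the shares went from 44.9% in ranks 1 to 100 (interval 34.3 to 55.9) to 24.9% in ranks 5001 to 10000 (interval 23.7 to 26.1) and 30.7% for the narrowest peaks (interval 29.9 to 31.4). The plot of marks by width rank shows both.

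A fixed window gave the same comparison without the effect of width. H3K18la lay within 2000 bp of the TSS of 398 of the 457 domain genes (87.1%, interval 83.7 to 89.9). It did so for 59.1% of 10689 genes with a TSS in another PIM H3K4me3 peak (interval 58.2 to 60), and for 34.4% of all protein-coding genes. Genes in peaks of ranks 501 to 1000 had 85.1% (interval 81.3 to 88.2), which overlaps the value of the domains. H3K27ac behaved otherwise. It lay at 395 domain genes (86.4%, interval 83.0 to 89.3) and at 83.5% of genes in another H3K4me3 peak (interval 82.8 to 84.2), and these intervals overlap, with 46.4% for all protein-coding genes. For genes in peaks of ranks 501 to 1000 the H3K27ac share was 89.3% (interval 85.9 to 92.0), which overlaps the value of the domains too. H3K27me3 lay at 98 domain genes (21.4%, interval 17.9 to 25.4), at 19.4% of genes in another peak (interval 18.7 to 20.2) and at 24.8% of all genes.

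**Figure D2:**
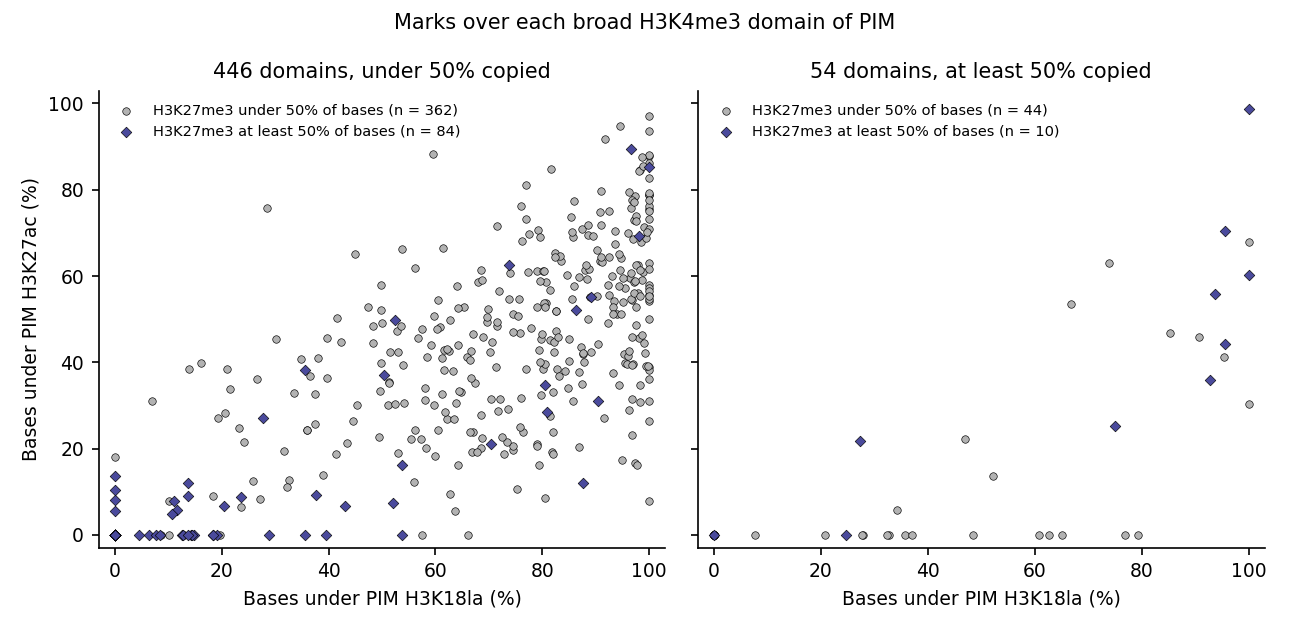
Each point is 1 of the 500 domains, placed by the percent of its bases under PIM H3K18la (horizontal axis) and H3K27ac (vertical axis), with diamonds where H3K27me3 covers at least 50% of bases. The left panel holds 446 domains and the right panel the 54 multi-copy ones. In the left panel most diamonds have H3K18la on under 50% of bases, and most other points lie to the right. In the right panel some diamonds lie far to the right, such as the widest domain, with 95.6% under H3K18la.

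H3K27me3 lay over a minority of the domains, and covered at least 50% of bases in most of those. It overlapped 111 of the 500 (22.2%, interval 18.8 to 26.1), as against 18.1% of all PIM H3K4me3 peaks, and covered at least 50% of bases in 94 (18.8%, interval 15.6 to 22.5), as against 16.3% of the other peaks (interval 15.9 to 16.8). The widest overlapping H3K27me3 peak had a median width of 23862 bp in domains that were not multi-copy, so these domains lay inside larger H3K27me3 regions. Of the 94, 38 carried neither H3K18la nor H3K27ac, which is 7.6% of the domains, as against 10.7% of all peaks. Mean H3K4me3 signal over those 38 had a median of 30.9 per base, as against 76.2 over the 500, and 27 of them held a protein-coding TSS. The 5 domains with the largest H3K27me3 share, each at 100%, were the widest of many at that value. Pax6, Cttn and Mast4 were among them. Mast4, a serine/threonine kinase gene, had a domain of 15622 bp with 12.7% under H3K18la. The region at Cttn, the gene of the actin-binding protein cortactin, was the second widest of all, 37429 bp (chr7:144429511-144466939). It lay in the gene body, held starts of non-coding transcripts but no protein-coding TSS, and its mean H3K4me3 signal was 23.8 per base. It had H3K18la on 6.43% of its bases and no H3K4me3 peak in ESC-ser, ESC-2i or GAS, and BMDM H3K27me3 covered 100% of it.

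Most of the 38 domains were overlapped by H3K27me3 in BMDM, ESC-ser and GAS too. BMDM H3K27me3 overlapped 37 of them (97.4%, interval 86.5 to 99.5), ESC-ser H3K27me3 31 (81.6%, interval 66.6 to 90.8) and GAS H3K27me3 29 (76.3%, interval 60.8 to 87.0). Over all 500 domains those lists overlapped 17.0%, 45.0% and 25.4%. H3K27me3 of cultured myoblasts (1 sample) and myotubes (2 samples) overlapped fewer, 13 of the 38 each (34.2%, interval 21.2 to 50.1). Over all 500 domains the shares of these 2 lists were 11.4% and 13.6%. H3K4me3 lay at 21 of the 38 in ESC-ser (55.3%), 31 in ESC-2i (81.6%) and 32 in GAS (84.2%), which is near the shares of all 500 domains, 59.2%, 73.8% and 84.6%. Another 56 domains had at least 50% of bases under H3K27me3 together with H3K18la or H3K27ac (11.2%, as against 5.70% of all PIM H3K4me3 peaks, although a wider region meets an active mark more easily), and 47 of them were not multi-copy. In 31 of the 47, H3K18la covered under 50% of bases. BMDM H3K27me3 covered at least 50% of bases in 30 of the 47, as against 14.8% of the 446 domains and 10.0% of all PIM H3K4me3 peaks. Meis1 was an example, with a domain of 9859 bp. Whether both kinds of mark lay on the same chromatin or in different cells of the sort cannot be told apart.

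H3K18la was missing from 68 domains, and the 5 widest of them were Gm13146 (22013 bp, 93.5% copied), a place without a TSS on chromosome 5 (21680 bp, 92.3% copied), Pax6, C130071C03Rik with Gm26803 (18460 bp, 98.5% under H3K27me3) and Znf41-ps (18004 bp, 95.5% copied). The 5 widest without H3K27ac were the regions at Cttn, at C130026I21Rik (36211 and 24923 bp), at Gm13241 with Gm13245 (32653 bp) and at Gm13146. Of the domains that were not multi-copy, 5 of 446 had none of the 3 marks (1.12%, interval 0.480 to 2.60), as against 9.47% of the other peaks, although a wider region meets a mark more easily. No TSS of any kind lay in 66 domains, of which 25 were multi-copy. The 5 widest of the 66 were all multi-copy, at 86.1% to 99.8%. They were chr5:94711489-94733168 (28844 bp from Gm6205), chr8:55345726-55365656 (390883 bp from Gpm6a), chr3:93203236-93219769 (3026 bp from Flg2), chr6:47671487-47686706 (76146 bp from Ezh2) and chr1:85303512-85316739 (32946 bp from C130026I21Rik). In the 41 others the nearest protein-coding TSS was a median of 37792 bp away, and 27 of the 41 carried H3K18la. H3K18la overlapped 63.7% of all PIM H3K4me3 peaks and 89.5% of the 446 domains that were not multi-copy.

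The genes in the domains were then grouped by lists of known function. Macrophage identity genes had a TSS in a domain in 8 of 20 cases (40.0%, interval 21.9 to 61.3), as against the 2.21% of all protein-coding genes and the 4.10% of those with H3K4me3 at a TSS. Tyrobp, the adaptor DAP12 of myeloid receptors, lay in a domain of 12821 bp. Cd68, a lysosomal glycoprotein, lay in a domain of 12255 bp that also held the TSS of Eif4a1 and Mpdu1, and where the ESC-ser peak was wider, 14912 bp. Some other domains held several coding genes too, such as Zfp36 with Plekhg2, Lyl1 with Trmt1 and Myd88 with Acaa1a, and their width belongs to no single gene. Lyz2, the lysozyme of myeloid cells, had 12041 bp, and Irf8, a transcription factor of the monocyte lineage, 11585 bp. The surface proteins used in the sort were outside the limit. Ptprc, which encodes CD45, had 5258 bp, and Adgre1, which encodes F4/80, 4608 bp. Itgam, which encodes CD11b, had 6283 bp, and Fcgr1, which encodes CD64, 5884 bp. The median H3K4me3 width over the 20 genes was 6614 bp, with a gene lacking a peak over a TSS counted as 0 bp. Over all protein-coding genes, counted in the same way, it was 1408 bp, and over those with a peak at a TSS 2957 bp.

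Transcription factors came next. Of 38 myeloid transcription factors 14 were in a domain (36.8%, interval 23.4 to 52.7), the widest at Klf6 (12610 bp), Lyl1 (12413 bp), Etv6 (12377 bp) and Irf8. Spi1, which encodes PU.1, had 8690 bp. Immediate early genes, which respond within minutes to stimulation, gave 9 of 24 (37.5%, interval 21.2 to 57.3). Junb had 13380 bp, Klf6 12610 bp, Fosl2 9934 bp and Nr4a3 9065 bp. Among regulators and brakes of NF-kB there were 7 of 28 (25.0%, interval 12.7 to 43.4). Zfp36, which encodes the mRNA decay factor tristetraprolin, had 17928 bp. Nfkbid, an atypical inhibitor of NF-kB, shared the domain of Tyrobp. Tnfaip3, the ubiquitin-editing enzyme A20, had 9090 bp, and Dusp1, a phosphatase of MAP kinases, 8533 bp. All 30 entries of these 3 lists in a domain, of which Klf6 and Egr2 stand in 2, had H3K18la and H3K27ac within 2000 bp of a TSS.

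Effector genes were uneven. Lysosome and phagocytosis genes had 8 of 17 in a domain (47.1%, interval 26.2 to 69.0), among them Psap, the precursor of the saposins, with 15195 bp, the proteases Ctsb and Ctsd with 14997 and 14830 bp, and Cd68. Actin and adhesion genes had 9 of 19 (47.4%, interval 27.3 to 68.3), led by Arpc2 of the Arp2/3 complex (10265 bp), the integrin gene Itgav (9722 bp), Cd44 (9499 bp) and Actb (9453 bp). Pattern recognition gave 5 of 19 (26.3%, interval 11.8 to 48.8), with the scavenger receptor Msr1 at 10595 bp, the lectin Clec4d at 10002 bp, Tlr2 at 8030 bp and the adaptor Myd88 at 7900 bp. Hypoxia and glycolysis genes gave 4 of 24 (16.7%, interval 6.68 to 35.9), namely Pkm (9364 bp), Pfkfb3 (7566 bp), Adm (7527 bp) and Eno1 (7415 bp). Adm, the gene of the vasodilator adrenomedullin, differed from the other 3 in that it had H3K27me3 and neither active mark at the promoter. Repair macrophage genes gave 3 of 21 (14.3%, interval 4.98 to 34.6), namely Stab1 (12333 bp), Tgfbi (9803 bp) and Lgals3 (9270 bp).

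The remaining lists ranged from none to 50% of their genes. Of 27 chemokine and cytokine genes 0 were in a domain (upper bound 12.5%). Near a TSS, however, 23 had H3K4me3 and 24 had H3K18la, as against 57.1% and 34.4% of all protein-coding genes. With a gene lacking a peak over a TSS counted as 0 bp, their median H3K4me3 width was 2690 bp. Over all protein-coding genes, counted in the same way, the median was 1408 bp. Interferon response genes gave 0 of 20 (upper bound 16.1%), with a median width of 3185 bp, and genes of the H3K4 methyltransferases and demethylases 0 of 15 (upper bound 20.4%). Those bounds include 2.21%, so none of the 3 lists is shown to lie below the background. MHC class II presentation gave 1 of 11, H2-DMa at 9116 bp, a chaperone subunit for peptide loading. Of 8 housekeeping genes 4 were in a domain (50%, interval 21.5 to 78.5), among them Actb, B2m (8042 bp) and Rpl13a (7896 bp). Developmental transcription factors gave 5 of 20 (25.0%, interval 11.2 to 46.9). Pax6, Neurog2 (9817 bp) and Gata6 (8276 bp) had H3K27me3 and neither active mark within 2000 bp of a TSS, and Meis1 had all 3 marks. Markers of other cell types followed. Neutrophil, lymphocyte, skeletal muscle, endothelium and stem cell lists gave 0 of 7, 0 of 8, 0 of 8, 0 of 5 and 0 of 5. Of 5 fibroblast genes 1 was in a domain, the growth factor receptor gene Pdgfra (8288 bp), which had H3K27me3 and neither active mark.

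**Figure D3:**
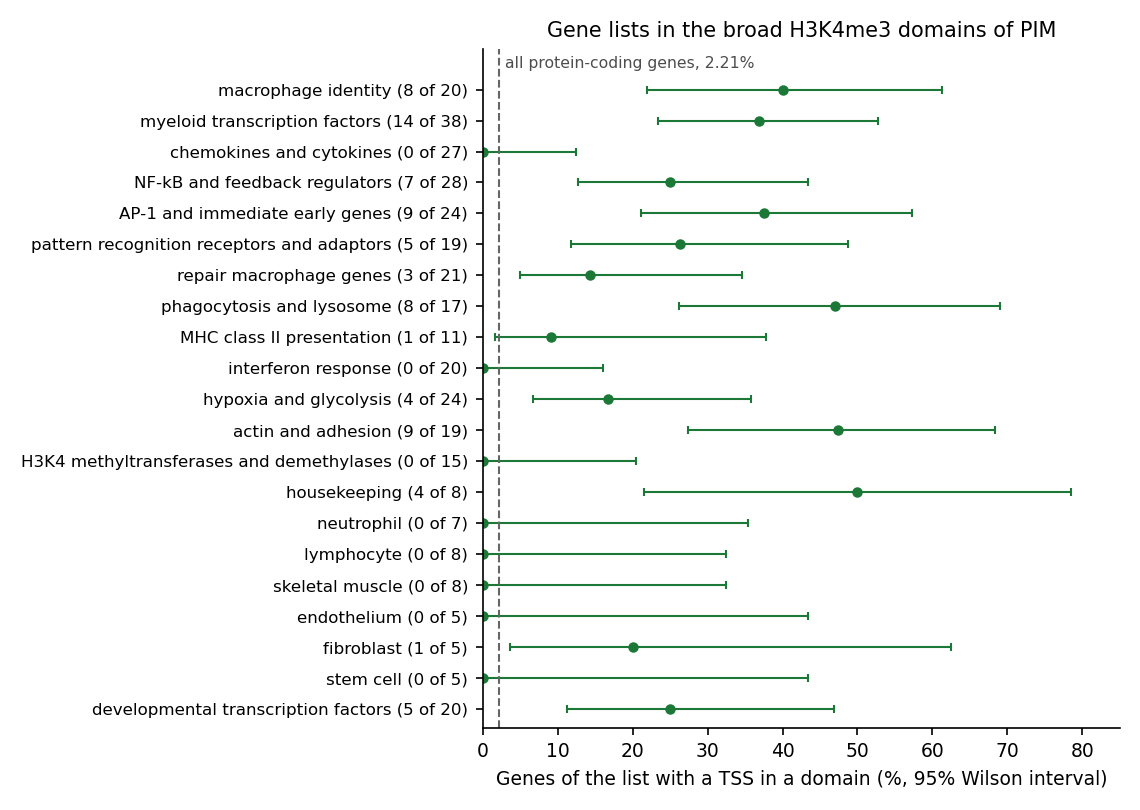
Percent of the genes of each list with a TSS in one of the 500 domains (horizontal axis), with 95% Wilson intervals and counts beside the list names. The dashed line marks the 2.21% of all protein-coding genes. Lysosome, actin, macrophage identity and housekeeping lists lie to the right of it, and chemokine and interferon lists are at 0.

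H3K4me3 was present at most of the domains in the other cell types, but in narrower peaks. A peak overlapped 296 domains in ESC-ser (59.2%, interval 54.8 to 63.4), as against 40.1% of all PIM H3K4me3 peaks. In ESC-2i it overlapped 369 (73.8%, interval 69.8 to 77.5), as against 50%, and in GAS 423 (84.6%, interval 81.2 to 87.5), as against 60.9%. The median width of the widest overlapping peak, where there was one, was 4491 bp in ESC-ser, 3359 bp in ESC-2i and 4044 bp in GAS. PIM peaks were wider than that by a median factor of 2.10, 2.79 and 2.29. The domains were chosen for their width in PIM, so a narrower peak elsewhere follows in part from the choice. It was as wide or wider in 30, 17 and 36 domains.

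Lists differed in their own widths, with medians of 3260 bp in ESC-ser, 2274 bp in ESC-2i, 1480 bp in GAS and 2131 bp in PIM, and in length, with 10849, 18806, 27814 and 24861 peaks in that order. The shares of domains with a peak have the same order as the lengths of the 3 other lists, and the part of list length in them was not tested. Ranks were compared too, although 500 peaks are a larger fraction of a shorter list. Among the 500 widest of GAS, which began at 5754 bp, were 117 domains (23.4%, interval 19.9 to 27.3), as against 2.08% of all PIM H3K4me3 peaks. The value was 92 of 446 without multi-copy domains (20.6%, interval 17.1 to 24.6). Among the 500 widest of ESC-2i, which began at 6033 bp, were 63 domains (12.6%, interval 9.97 to 15.8), as against 2.00%. Among those of ESC-ser, which began at 7445 bp, were 53 (10.6%, interval 8.20 to 13.6), as against 2.54%. Seen from the other lists, 117, 65 and 53 of their 500 widest peaks touched a domain, or 23.4%, 13% and 10.6%. Of the 500 domains, 342 were in none of these 3 lists of widest peaks, 98 in 1, 45 in 2 and 15 in all 3, or 68.4%, 19.6%, 9% and 3%. Over all PIM H3K4me3 peaks the shares were 94.8%, 3.92%, 1.10% and 0.165%.

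Of the 15 domains shared by all, 11 held a protein-coding TSS. By the sum of width ranks, the first was one of the Sfi1 domains (27394 bp in PIM and 21995 bp in GAS), which had 34.5% copied words. Tnrc18 had almost the same width in every list, with 12337 bp in PIM, 13753 bp in ESC-ser, 12622 bp in ESC-2i and 12159 bp in GAS. Neat1, a long non-coding RNA of nuclear paraspeckles, had 11398, 13304, 10844 and 13276 bp in that order. Its neighbour Malat1, a non-coding RNA of nuclear speckles, had 8227, 15758, 7549 and 11935 bp. Irf2bpl had 14923, 18329, 11737 and 6869 bp. Rara, the retinoic acid receptor alpha gene, had 10192, 9012, 7625 and 8286 bp. Zbtb7b, a zinc-finger transcription factor gene, had 13304, 8924, 6653 and 11031 bp. The domain of Brd2, a bromodomain protein gene, with H2-DMa had 9116, 8004, 10128 and 10370 bp. The last coding pair was Hes7, a repressor of the segmentation clock, with the lipoxygenase gene Aloxe3 and 9130213A22Rik, at 8907, 11051, 10896 and 7294 bp. A multi-copy region without a TSS near Ezh2 (99.8% copied) completed the 10 with the smallest rank sums. H3K27ac overlapped 14 of the 15 in PIM, 15 in GAS, 14 in BMDM and 13 in ESC-ser, as against 79.8%, 67.8%, 74.8% and 41.8% of all 500 domains. The 15 were chosen for wide H3K4me3 in GAS and ESC-ser, so the higher shares there follow in part from the choice.

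**Figure D4:**
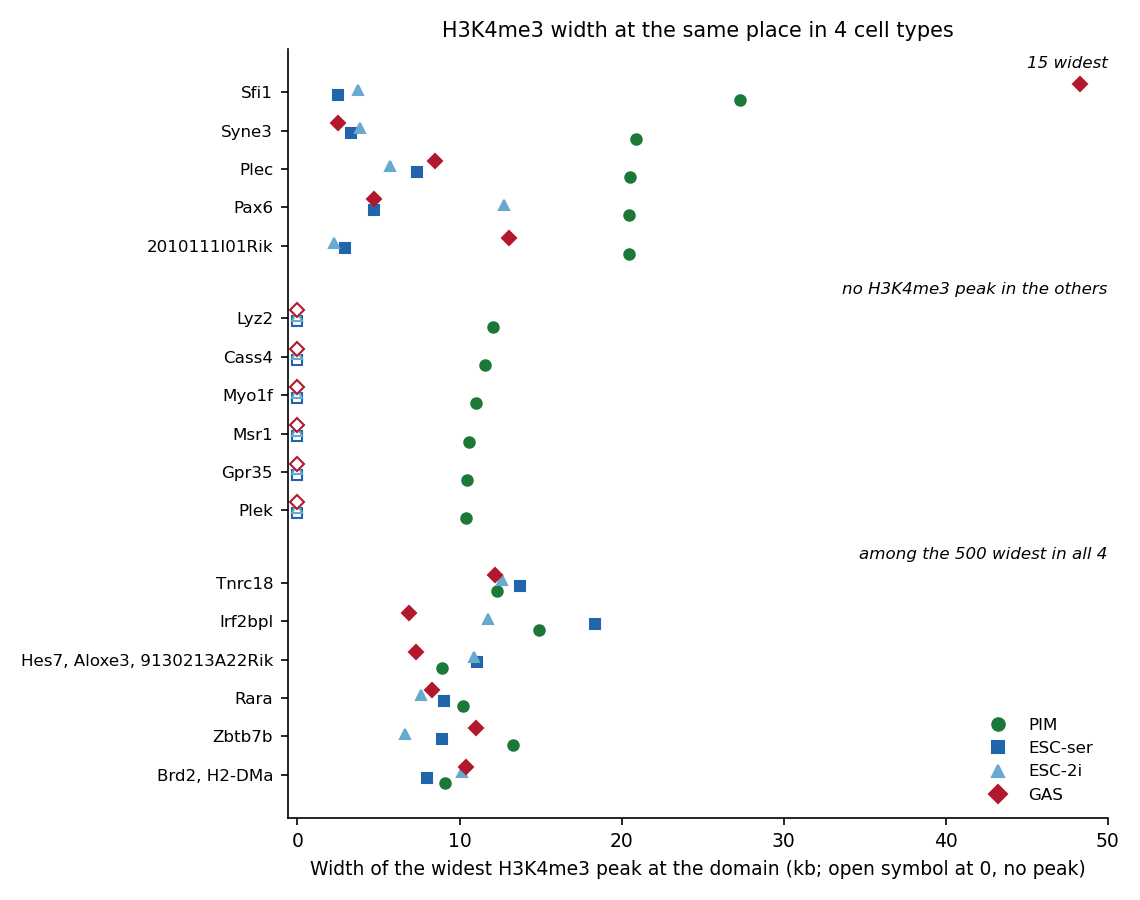
Width of the widest H3K4me3 peak (horizontal axis, kb) in PIM, ESC-ser, ESC-2i and GAS at named domains with a protein-coding TSS and under 50% copied words, with open symbols at 0 where a list has no peak. The upper group is from the 15 widest domains, the middle group has no peak in the other 3 lists, and the lower group is among the 500 widest in all 4. Syne3 is at 20868 bp in PIM and 2521 bp in GAS, while the 4 symbols of Tnrc18 lie between 12159 and 13753 bp.

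At the opposite end, 68 domains (13.6%, interval 10.9 to 16.9) had no H3K4me3 peak in ESC-ser, ESC-2i or GAS. With the 5000 strongest peaks of each of these lists the share was 36.6%, and for the 500 PIM peaks of largest total signal it was 6%. Among all PIM H3K4me3 peaks 35.8% had none, so the domains were shared more often than the list as a whole. A wider region meets another peak more easily, and how much of this width accounts for was not separated. Of the 68, 60 were not multi-copy and 36 held a protein-coding TSS. Of the 10 widest, 6 besides Bcl2a1b held a protein-coding TSS and were not multi-copy. The Lyz2 domain was 12041 bp wide, with H3K18la on 66% and H3K27ac on 41.3% of its bases and 29.5% copied words. The Cass4 domain was 11574 bp wide, with 100% and 54.3% under these marks. Bcl2a1b, an anti-apoptotic gene of a family of near-identical copies, had 11130 bp, with 74.7% copied words, so its reads may belong to other members. Myo1f had 11002 bp, with 80.2% and 38.6% under the marks. Msr1 had 10595 bp, with 81.8% and 19.3%. Gpr35 had 10441 bp, with 97.6% and 73.8%. Plek, which encodes pleckstrin, a target of protein kinase C in blood cells, had 10418 bp, with 97.0% and 39.5%. The widest that held no TSS and was not multi-copy lay 59245 bp from Zfp36l2 (chr17:84115757-84128702). It was 12946 bp wide and had H3K18la on 94.7% and H3K27ac on 64.1% of its bases.

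Marks of the other lists over these domains are given beside their shares over the 446 domains that were not multi-copy. In the 60 of the 68 that were not multi-copy, PIM H3K18la overlapped 51 (85%, interval 73.9 to 91.9), as against 89.5%, and PIM H3K27ac 44 (73.3%, interval 61 to 82.9), as against 85.4%. BMDM H3K18la overlapped 45 (75%, interval 62.8 to 84.2), as against 73.8%, and BMDM H3K27ac 40 (66.7%, interval 54.1 to 77.3), as against 80.7%. GAS H3K18la overlapped 21 (35.0%, interval 24.2 to 47.6), as against 77.3%. ESC-ser H3K18la and ESC-2i H3K18la overlapped 7 each (11.7%, interval 5.77 to 22.2), as against 55.2% and 59.2%, and ESC-ser H3K27ac 0 of 60 (upper bound 6.02%), as against 45.3%. PIM H3K27me3 overlapped 12 of the 60 (20%, interval 11.8 to 31.8), as against 22.2%. These domains were chosen for lacking H3K4me3 in ESC-ser, ESC-2i and GAS, and no such choice was made on BMDM, so low shares of active marks in the former lists follow in part from the choice.

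**Figure D5:**
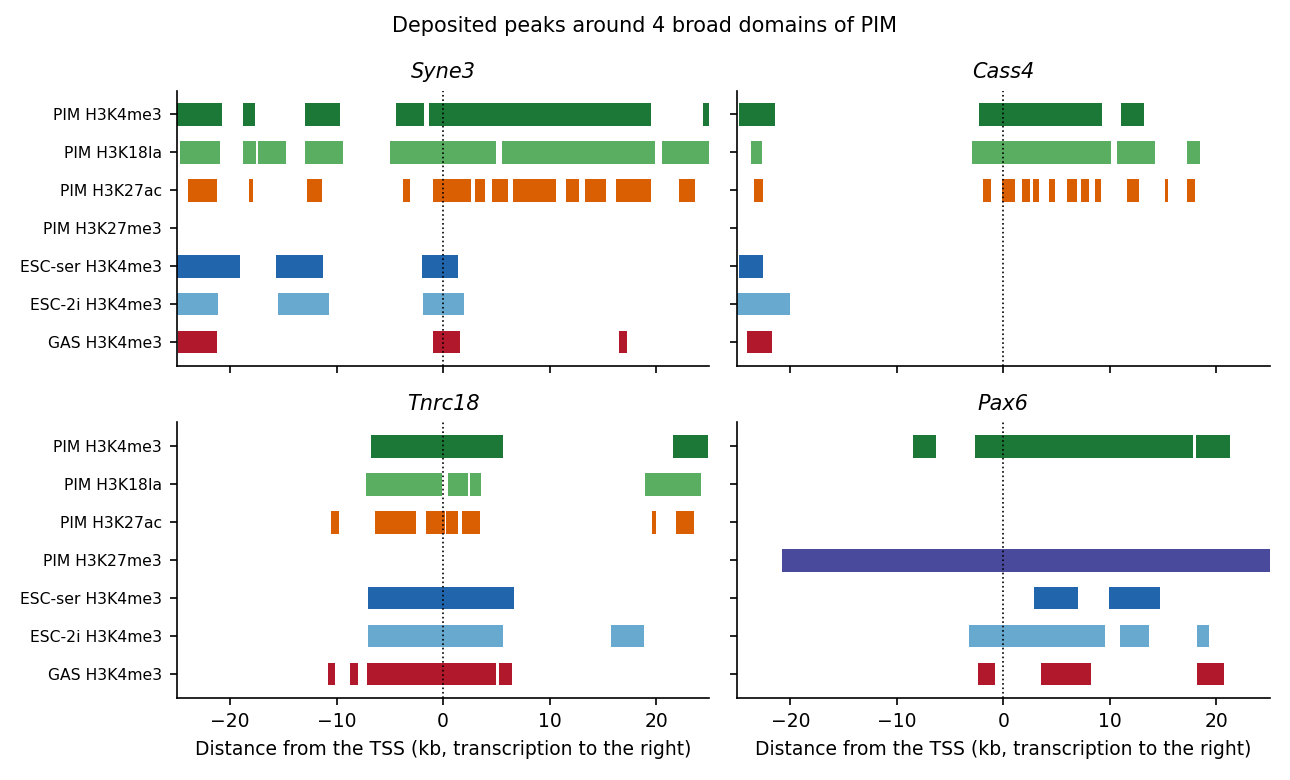
Deposited peaks within 25 kb of the TSS at 4 domains, with distance along the direction of transcription on the horizontal axis and 1 row per list. At Syne3 the PIM H3K4me3 domain runs to 19.5 kb past the TSS while the peaks that the other 3 cell types have over the TSS end within 2 kb of it. Cass4 has no peak at the TSS in the other 3, Tnrc18 has a peak of like extent in all 4, and Pax6 lies in an H3K27me3 region.

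The maps of peaks around 4 domains show the kinds side by side. The Syne3 domain ran from -1.34 to 19.5 kb relative to the TSS, and the widest peaks at the same place were 3315 bp in ESC-ser, 3877 bp in ESC-2i and 2521 bp in GAS. The Cass4 domain ran from -2.29 to 9.28 kb, inside an H3K18la peak from -2.94 to 10.1 kb. The Tnrc18 domain ran from -6.76 to 5.58 kb, so it extended farther upstream than downstream. The Pax6 domain ran from -2.65 to 17.8 kb, and the widest H3K4me3 peak over it was 4716 bp in ESC-ser, 12746 bp in ESC-2i and 4729 bp in GAS.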

How the data were processed

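The authors trimmed CUT&Tag reads, aligned them to mm10 (GRCm38), combined the replicates of a group with unionbedg and then called peaks with SEACR in stringent mode at the top 1%. The submitters' processing notes name Trim Galore 0.6.6, Bowtie2 2.4.4, SAMtools 1.13, bedtools 2.30 and SEACR 1.3. No filter on reads that align to several places is stated. The study's methods say that peaks in blacklisted regions were removed. Whether this was done to the deposited lists was not tested, no blacklist was applied here, and the widest peak of the list lies in multi-copy sequence at the start of chromosome 9. The lists deposited by the authors give each peak's position and total signal, which is coverage summed over the peak and not scaled to depth. The deposited maximum signal, a score, was copied and not analysed. The lists give no depth, and the read totals in the study's quality table were not used here.

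The 500 widest PIM H3K4me3 peaks on chromosomes 1 to 19 were taken, with ties broken by total signal. Members and gene lists were chosen with earlier results of these data known. Transcription starts came from GENCODE vM21. Promoter windows of 2000 bp on each side were laid around 1 TSS per gene, the most upstream one in the peaks concerned. A peak was multi-copy where at least 50% of its 31-base words recurred in the genome. That limit, and the limit of 10% copied words and the 250 bases used for printed sequences, were set after values were seen. RefSeq promoters matched 15680 of 20698 gene symbols.

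Named genes were those of the 15 widest domains, the 10 widest without H3K4me3 elsewhere, the 10 with the smallest rank sums in all 4 cell types, the 5 with most H3K27me3, the 5 widest lacking H3K18la, H3K27ac or a TSS, and up to 4 per gene list. The genes of the sort proteins, Spi1, Gata6, genes that share a domain with a listed gene and the genes at the limit were added after their values were seen. Some genes that the rule names are not reported here. Shares have Wilson intervals. Python 3.11.15, numpy 2.4.6, pandas 2.3.3, scipy 1.17.1, numba 0.67.0 and matplotlib 3.10.9 were used, and the overlap functions were tested on simulated intervals. Alternatives were 250 or 1000 domains, ranking by total signal, merging peaks under 1000 bp apart, other overlap and promoter limits, all genes in place of protein-coding ones, and the 5000 strongest peaks of a list.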

Additional observations from a re-analysis of the deposited data

Results flagged for a closer look

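Chromosome X lay outside the choice of domains. On it, 8 of 587 PIM H3K4me3 peaks (1.36%) were at least as wide as the narrowest domain, as against 2.01% on chromosomes 1 to 19, and they were listed because no comparison of the report used them. Tlr13, an endosomal receptor for bacterial RNA, had 8724 bp, with H3K18la on 100% and H3K27ac on 10.6% of its bases. Flna, the gene of the actin-binding protein filamin A, had 8343 bp, with 53.9% and 38.7%. Prkx had 7806 bp and Mid1 8197 bp.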

How the results depend on the processing

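No paired analysis was possible because replicates were pooled before peak calling. Under the alternatives 40 values stayed within the error of the value they replace and 22 moved beyond it, and the cause was not tested. Choosing the 500 peaks of largest total signal gave a TSS in 91.2% of domains in place of 86.8%, median coverage by H3K18la of 80.28% and by H3K27ac of 49.63%, and H3K27me3 over 16%. It also gave H3K18la and H3K27ac at 97.53% of promoters each, 18.2% among the 500 widest of GAS and 6% without H3K4me3 elsewhere. With the 5000 strongest peaks of the other lists, median coverage was 47.73% for H3K18la and 18.6% for H3K27ac, H3K27me3 lay over 18.6%, promoters had H3K18la in 59.3% and H3K27ac in 61.05%, and 36.6% of domains had no H3K4me3 elsewhere. Merging peaks under 1000 bp apart gave 26.2% with H3K27me3, 82.88% of promoters with H3K18la and 19.6% among the widest of GAS. The 250 widest gave 16.8% among the widest of ESC-2i and 10.4% without H3K4me3 elsewhere. A protein-coding TSS lay in 78.4%, and promoters of all genes, non-coding ones included, had H3K27ac in 81.98%. Leaving out multi-copy domains, an alternative chosen after seeing the data, gave a TSS in 90.81%. The share among the 500 widest of ESC-ser moved under none of its alternatives. Read depth was not used, so an absent peak says only that none was called.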
